A study of Homo sapiens with 6 samples.

Results

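The inhibitors of cyclin-dependent kinases (CDKs) were examined in 6 RNA samples of DLD-1, a human colon cancer cell line. The samples came from a pair of subclones of the line, with 3 samples of DLD-1Δα-Cat set against 3 of DLD-1α-Cat; what Δα-Cat stands for is not spelled out in the labels. Both subclones grew untreated for 96 h embedded in collagen type I at 1 mg/ml, and each sample was read on 1 Affymetrix array. Each group is therefore 1 subclone, so any feature that a subclone had acquired by chance cannot be told apart from its label. The 7 genes CDKN1A, CDKN1B, CDKN1C, CDKN2A, CDKN2B, CDKN2C and CDKN2D were sought through the array's probe sets, groups of short probes against 1 transcript. A probe set was taken only where the platform annotation gave it exactly 1 gene symbol. This gave 14 probe sets of 6 genes, out of 54613 probe sets and 19775 genes. CDKN2C had no such probe set and was not analysed here.

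CDK inhibitors are the brakes of the cell division cycle. The CIP/KIP proteins p21 (CDKN1A), p27 (CDKN1B) and p57 (CDKN1C) bind complexes of cyclins with CDKs, chiefly those of CDK2. The INK4 proteins p16 (CDKN2A), p15 (CDKN2B), p18 (CDKN2C) and p19 (CDKN2D) bind CDK4 and CDK6 alone and keep D-type cyclins from activating them. With those kinases held back, the retinoblastoma protein stays in its active form and restrains the E2F factors that open S phase. In the intestinal lining, p21 and p27 are known to accompany the exit of cells from the dividing crypt compartment. CDKN2A also encodes the unrelated ARF protein from another reading frame.

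Values are log2 intensities after RMA, the authors' background correction, normalization and summary of probes. They ran between 1.95 and 15.15 with array medians of 6.12 to 6.15. Each difference is the mean of DLD-1Δα-Cat less that of DLD-1α-Cat on that log2 scale, with the standard error (SE) of limma's moderated test. A gene was represented by its brightest probe set and its p-value was adjusted over all genes by Benjamini-Hochberg. Single probe sets were tested in a second fit adjusted over all probe sets. The threshold was an adjusted p of 0.05. Whether the 3 samples of a subclone were separate cultures is not stated, so the p-values reflect sample-to-sample spread that may be technical. CTNNA1, the α-catenin gene, was lower in DLD-1Δα-Cat but well above the array median: it read 11.38, 11.30 and 11.01 in DLD-1Δα-Cat, against 12.73, 12.74 and 12.79 in DLD-1α-Cat (limma adjusted p = 0.000838). Both subclones carried the epithelial markers: 9 of 9 had mean log2 intensities from 9.49 to 14.08, and the most different of them, the keratin KRT8, did not pass (0.24, limma adjusted p = 0.314). The means of the 8 fibroblast and 6 leukocyte markers lay between 3.02 and 7.15. Of those other-cell markers only LYZ (1.54) and CD14 (-1.17) passed, in opposite directions, and their part in the results was not tested. The LYZ call came from a dim probe set, at percentile 32.1 of brightness, and the second LYZ probe set differed by -0.25. In fits that each left out 1 array, LYZ kept its call in 3 of 6 and CD14 in 6 of 6.

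CDKN1A and CDKN2B RNA rose in DLD-1Δα-Cat, and none of the 6 measured inhibitors passed as lower. The rise was 2.38-fold for CDKN1A and 2.53-fold for CDKN2B. The other 4 measured genes did not pass. Over all 19775 genes 3.84% passed as higher and 1.67% as lower, against 2 and 0 of the 6 inhibitors. Of the 14 probe sets 2 passed as higher and 0 as lower, where 1.72% and 0.729% of all probe sets did. The 12 probe sets that did not pass differed by -0.25 to 0.36. The median difference was 0.21 over the 6 genes and -0.030 over all genes, and 0.043 over the 14 probe sets and -0.041 over all probe sets.

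**Figure D1:**
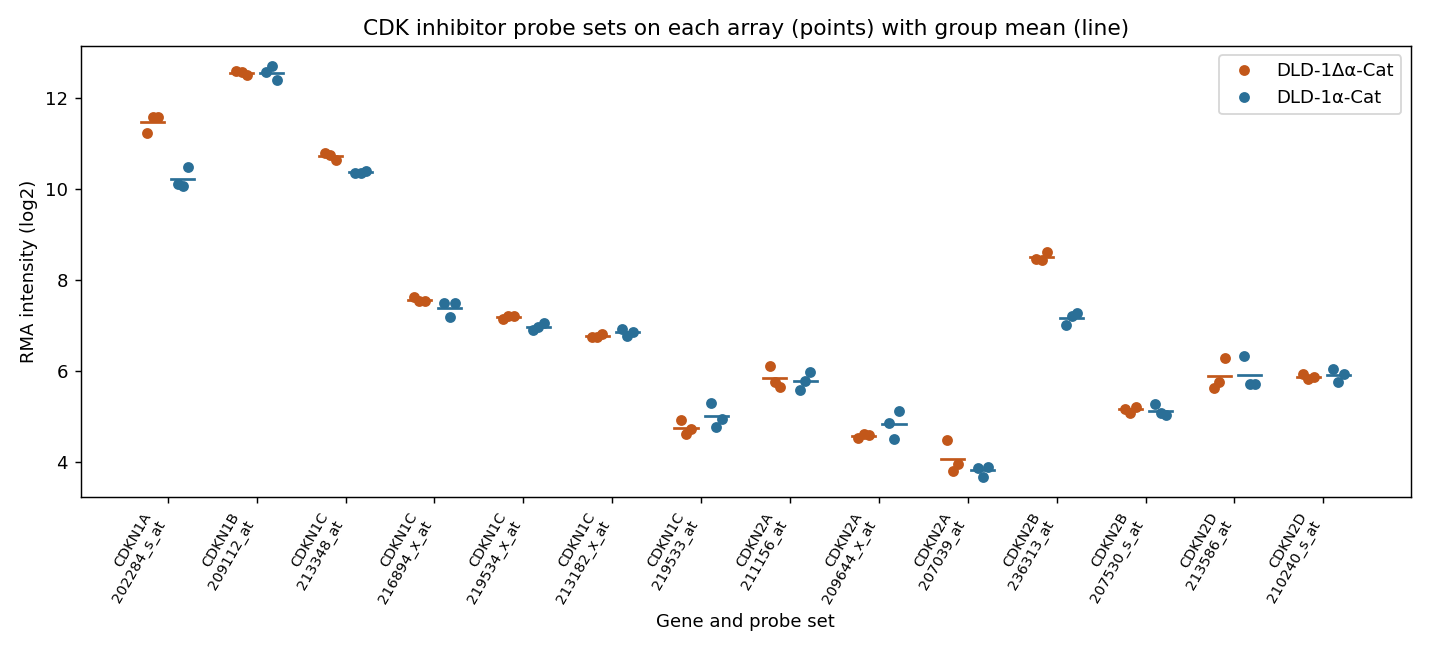
RMA log2 intensity (vertical axis) of each of the 14 probe sets of CDK inhibitor genes (horizontal axis) on each of the 6 arrays, with the mean of each group as a line; DLD-1Δα-Cat is on the left of each pair and DLD-1α-Cat on the right. The 3 DLD-1Δα-Cat points of CDKN1A and of CDKN2B probe set 236313_at stand clear above the 3 DLD-1α-Cat points, while those of CDKN1B and CDKN2D overlap.

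The promoters of both genes that rose are printed here to show the stretch of DNA next to the transcription start. The sequences are those of RefSeq on GRCh38.p14, the 250 bases before an annotated start, written 5′ to 3′ on the strand of the gene. The start of p16 from CDKN2A is added because that gene lies beside CDKN2B and did not pass. Capitals mark the GC box GGGCGG, or CCGCCC on the other strand, the motif named for the factor Sp1. These are chr6:36678464-36678713 (plus strand), chr9:22009306-22009555 (minus strand) and chr9:21974858-21975107 (minus strand).
CDKN1A: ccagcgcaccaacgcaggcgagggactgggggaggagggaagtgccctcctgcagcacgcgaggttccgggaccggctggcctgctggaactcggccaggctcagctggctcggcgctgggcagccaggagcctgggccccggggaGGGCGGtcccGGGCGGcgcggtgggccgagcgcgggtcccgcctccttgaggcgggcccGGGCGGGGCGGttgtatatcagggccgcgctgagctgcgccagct
CDKN2B: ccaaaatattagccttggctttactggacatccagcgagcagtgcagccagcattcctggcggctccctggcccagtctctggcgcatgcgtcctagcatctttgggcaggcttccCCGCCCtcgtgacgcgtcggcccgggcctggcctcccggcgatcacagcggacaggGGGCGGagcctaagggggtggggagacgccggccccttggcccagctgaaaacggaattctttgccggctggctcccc
CDKN2A: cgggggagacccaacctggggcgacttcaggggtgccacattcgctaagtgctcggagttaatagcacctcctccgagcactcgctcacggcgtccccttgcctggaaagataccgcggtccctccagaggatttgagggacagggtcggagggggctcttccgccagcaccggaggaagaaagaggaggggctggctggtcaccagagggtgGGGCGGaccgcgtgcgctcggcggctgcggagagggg
The CDKN1A window held 4 GC boxes, of which the pair nearest to the start share a single base. The CDKN2B window held 2, on opposite strands, and the p16 window of CDKN2A held 1. A GC box was found in 42.6% of the 35116 windows of this length, so its presence is common. It was also found in the windows of CDKN1B, with 1 match, and of CDKN2D, with 2, both genes that did not pass. Windows were available for 6 of the 7 genes, not for CDKN1C. GC content was 76.4% for CDKN1A and 66.4% for CDKN2B, against a median of 58.0% over all windows. It was also above that median for genes that did not pass, at 66.8% for the p16 window of CDKN2A, 67.6% for CDKN2D and 64.4% for CDKN1B. The element CAGAC, or GTCTG on the other strand, which resembles the half-site of SMAD factors, was in none of the 3 windows and in 38.0% of all windows. Neither CACGTG, the E-box of MYC-type factors (6.34% of windows), nor TATAAA or its reverse TTTATA (10.7%) was present in them.

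Among the CIP/KIP genes, CDKN1A encodes p21, an inhibitor induced by stress and by signals for differentiation. Its single probe set, 202284_s_at, read 11.22, 11.59 and 11.59 in DLD-1Δα-Cat, against 10.10, 10.06 and 10.48 in DLD-1α-Cat. Every DLD-1Δα-Cat array lay above every DLD-1α-Cat array. The group means were 11.47 ± 0.218 and 10.22 ± 0.232 (SD, n = 3 each), a difference of 1.25 (SE 0.160, 95% interval 0.88 to 1.62, limma adjusted p = 0.00638). The differences between arrays of the same replicate number were 1.12, 1.53 and 1.11. The gene is carried by a probe set at percentile 87.6 of brightness among all probe sets, well away from the dim end of the scale. In the fit over all probe sets its adjusted p was 0.0122, and 0.0580 without replicate 2 or replicate 3 of DLD-1Δα-Cat.

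CDKN1B, which encodes p27, is regulated to a large part through the stability of its protein, which arrays do not see. It read 12.58, 12.57 and 12.50 in DLD-1Δα-Cat, against 12.56, 12.69 and 12.40 in DLD-1α-Cat. The DLD-1Δα-Cat values fell within the DLD-1α-Cat range. The means were 12.55 ± 0.0431 and 12.55 ± 0.147 (SD, n = 3 each), a difference of -0.00050 with a 95% interval of -0.25 to 0.25 (limma adjusted p = 0.998). The interval leaves room for a change of up to 0.25 either way, on the log2 scale. Its probe set was at percentile 96.1, the brightest of the 14.

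CDKN1C, the imprinted gene of p57, had 5 probe sets that did not move alike. The brightest, 213348_at, read 10.80, 10.74 and 10.64 in DLD-1Δα-Cat, against 10.35, 10.35 and 10.40 in DLD-1α-Cat. Those arrays did not overlap. The difference was 0.36 (SE 0.0924, 95% interval 0.14 to 0.58), and it did not pass (limma adjusted p = 0.0715). It passed where dim probe sets were left out of the test (limma adjusted p = 0.0397). Probe sets 216894_x_at and 219534_x_at also had every DLD-1Δα-Cat array above every DLD-1α-Cat array, at 0.18 and 0.22. The remaining 2, 213182_x_at and 219533_at, overlapped and lay at -0.082 and -0.25. With all 5 averaged the difference was 0.086 (limma adjusted p = 0.651). In all, arrays of 3 of the 6 genes, CDKN1A, CDKN1C and CDKN2B, did not overlap in the higher direction, as was so for 14.1% of all genes, and 0 in the lower direction (13.1%). Of the 14 probe sets, 5 did not overlap in the higher direction and 0 in the lower (10.4% and 11.7% of all probe sets).

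**Figure D2:**
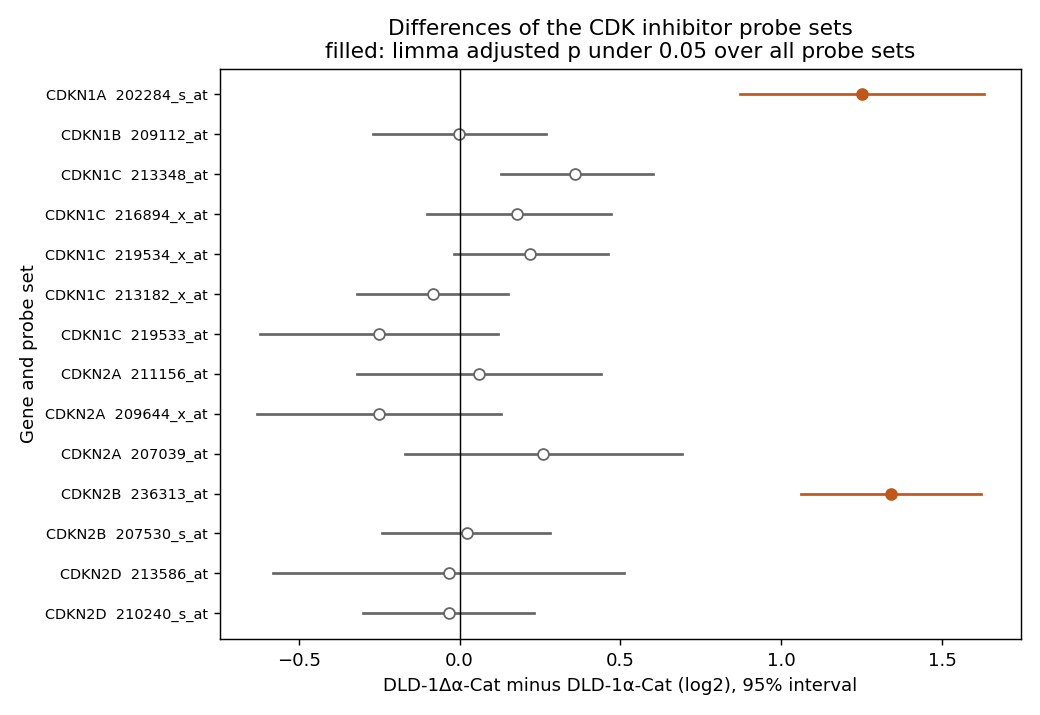
Difference between DLD-1Δα-Cat and DLD-1α-Cat (the first minus the second, log2, horizontal axis) of each of the 14 probe sets (vertical axis) with its 95% interval from the limma fit over all probe sets; filled orange points passed the adjusted p over all probe sets. CDKN1A at 1.25 and CDKN2B 236313_at at 1.34 stand apart, and the other 12 lie between -0.25 and 0.36.

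Among the INK4 genes, CDKN2B encodes p15, known as a target of TGF-β signalling in epithelial cells. Its probe set 236313_at read 8.46, 8.44 and 8.62 in DLD-1Δα-Cat, against 7.01, 7.21 and 7.28 in DLD-1α-Cat. All DLD-1Δα-Cat arrays were higher than all DLD-1α-Cat arrays, by more than 1 unit. The means were 8.51 ± 0.0960 and 7.17 ± 0.141 (SD, n = 3 each), a difference of 1.34 (SE 0.112, 95% interval 1.08 to 1.60, limma adjusted p = 0.00107). Between arrays of the same replicate number the differences were 1.45, 1.23 and 1.34.

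The second CDKN2B probe set, 207530_s_at, did not show this. It read 5.16, 5.09 and 5.22 in DLD-1Δα-Cat, against 5.28, 5.08 and 5.04 in DLD-1α-Cat, and the groups overlapped. Its difference was 0.024 (95% interval -0.24 to 0.28, limma adjusted p = 0.938 over all probe sets). It stood at percentile 37.0 of brightness, below the median of all probe sets, whereas 236313_at stood at 66.6. The call for CDKN2B thus rests on 1 of its 2 probe sets. The average of both differed by 0.68 (limma adjusted p = 0.00473). The annotation does not say which transcripts each probe set reads, and that was not tested.

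CDKN2A, the gene of p16 and ARF, was dim in both subclones. Its brightest probe set, 211156_at, read 6.12, 5.77 and 5.65 in DLD-1Δα-Cat, against 5.59, 5.78 and 5.98 in DLD-1α-Cat. The groups overlapped, with a difference of 0.061 (95% interval -0.31 to 0.43, limma adjusted p = 0.850). The others, 209644_x_at and 207039_at, lay at percentiles 30.8 and 20.3 and differed by -0.25 and 0.26, in opposite directions. All 3 were below the median brightness of probe sets, where background takes a larger share of the signal and can hide a change. The annotation does not separate p16 from ARF transcripts.

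CDKN2D, the gene of p19, gave a similar picture. Probe set 213586_at read 5.63, 5.76 and 6.29 in DLD-1Δα-Cat, against 6.34, 5.71 and 5.72 in DLD-1α-Cat, with 1 high array in each subclone. The difference was -0.033 (95% interval -0.57 to 0.50, limma adjusted p = 0.948). The interval is the widest of the 6 genes. For 210240_s_at the difference was also -0.033, with a 95% interval of -0.30 to 0.23. Both probe sets were at about percentile 47, close to the median of the array.

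CDKN2A and CDKN2B lie side by side on chromosome 9, and the genes around them were read from the same fit. Of the 10 tested genes on each side of CDKN2B, 2 rose and 0 fell, with a median difference of -0.0086. On one side MIR31HG, the host transcript of microRNA miR-31, read 8.71, 8.15 and 7.92 in DLD-1Δα-Cat, against 5.20, 3.93 and 4.86 in DLD-1α-Cat. Its difference was 3.59 (SE 0.338, limma adjusted p = 0.00171). On the other side ELAVL2, a neuronal RNA-binding protein, read 9.06, 8.71 and 8.78 in DLD-1Δα-Cat, against 3.73, 4.08 and 4.41 in DLD-1α-Cat, a measured difference of 4.77 (limma adjusted p = 3.09e-05). For both genes the groups were far apart, and the DLD-1α-Cat arrays were below the array median. Their levels there lay within the range of the fibroblast and leukocyte marker means, so they may be background, and the measured differences are not to be read as exact folds.

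The genes between these 3 did not pass. IFNE differed by 0.21, MTAP, a methionine salvage enzyme, by -0.18, CDKN2A-AS1 by -0.12, CDKN2A by 0.061 and DMRTA1 by -0.19. CDKN2B-AS1, the antisense RNA also called ANRIL, averaged 2.79 ± 0.0197 in DLD-1Δα-Cat, against 2.77 ± 0.0993 for DLD-1α-Cat (SD, n = 3 each). That is percentile 2.26 of brightness, at the dim end of the scale, where a change could be missed. No other of the 20 neighbours passed. The 10 tested genes around CDKN1A, 5 on each side, held 0 calls by limma and 1 gene at an unadjusted p under 0.05, with differences from -0.23 to 0.46. Calls also lay around inhibitors that did not pass. Among 10 neighbours CDKN1B had 1 higher (GPRC5D-AS1, 0.64) and 1 lower (APOLD1, -0.79). CDKN1C had 1 lower (SLC67A1-AS, -1.06) and CDKN2D 1 lower (PDE4A, -1.49), each among 10. Over all genes 3.84% passed as higher and 1.67% as lower.

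**Figure D3:**
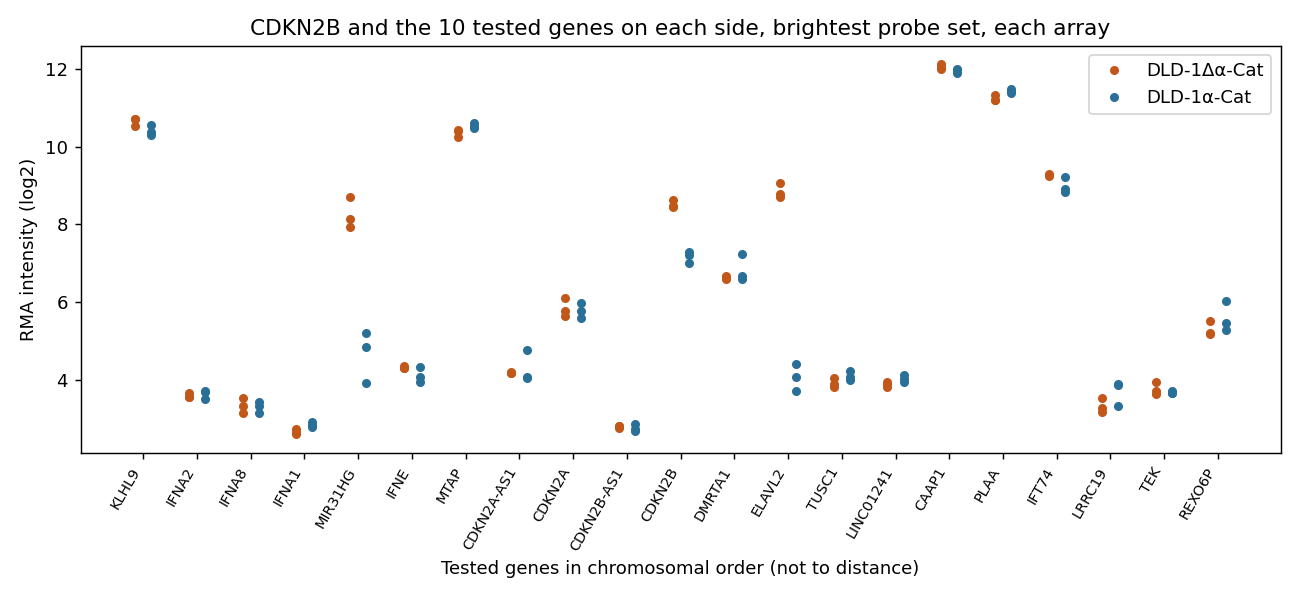
RMA log2 intensity (vertical axis) on each array for CDKN2B and the 10 tested genes on each side, in chromosomal order without distances (horizontal axis); DLD-1Δα-Cat is left of DLD-1α-Cat for each gene. MIR31HG, CDKN2B and ELAVL2 are higher in DLD-1Δα-Cat, and the points of the genes between them lie close together.

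The kinases that the inhibitors bind gave 1 call. CDK6, a partner of all INK4 proteins, rose in DLD-1Δα-Cat: its brightest probe set read 10.53, 11.15 and 11.10 in DLD-1Δα-Cat, against 9.0, 9.72 and 9.37 in DLD-1α-Cat. The arrays did not overlap, and the difference was 1.56 (SE 0.228, limma adjusted p = 0.0108). Of its 7 probe sets 4 passed as higher and 6 had a positive difference, from -0.12 to 1.78. Without replicate 3 of DLD-1α-Cat the limma adjusted p was 0.0571. CDK4, the other INK4 partner, read 11.90, 11.76 and 11.92 in DLD-1Δα-Cat, against 12.42, 12.11 and 12.30 in DLD-1α-Cat. That difference, -0.41, did not pass (limma adjusted p = 0.0890) although the arrays did not overlap. It passed as lower when eBayes used trend and robust estimation (limma adjusted p = 0.0243). CDK2, the main CIP/KIP partner, differed by -0.17 (95% interval -0.45 to 0.10) and the mitotic kinase CDK1 by -0.27 on its brightest probe set (95% interval -0.57 to 0.040). The other CDK1 probe sets differed by -0.57, -0.61 and -0.70, and on all 4 every DLD-1Δα-Cat array lay below every DLD-1α-Cat array. None passed over all probe sets, and the average of the 4 differed by -0.54 (limma adjusted p = 0.0997). Of 6 tested kinases 1 was higher and 0 lower, with a median of -0.16.

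Of 11 cyclins, 9 had a negative difference and 1 passed, the mitotic cyclin CCNB1. It read 12.18, 11.91 and 12.19 in DLD-1Δα-Cat, against 12.85, 12.55 and 12.74 in DLD-1α-Cat, a difference of -0.62 (limma adjusted p = 0.0354). The call was kept in only 1 of the 6 fits that left out an array, that without replicate 2 of DLD-1α-Cat. No CCNB1 probe set passed over all probe sets (limma adjusted p = 0.064 and 0.0757). Neither CCND1 (-0.10, 95% interval -0.37 to 0.17), the D cyclin that works with CDK4 and CDK6, nor CCNE1 (-0.51, 95% interval -1.09 to 0.070) or CCNA2 (-0.19) passed. The second CCNA2 probe set differed by -0.63 with arrays that did not overlap, and the average of both by -0.41 (limma adjusted p = 0.0895). The second probe sets of CCND1 and CCNE1 differed by -0.33 and -0.31, also with arrays that did not overlap. They did not pass over all probe sets (limma adjusted p = 0.242 and 0.307). Averaged over its probe sets CCND1 differed by -0.22 and CCNE1 by -0.41, and neither passed (limma adjusted p = 0.287 and 0.173). Among 13 RB and E2F genes only E2F5, a repressor-type E2F, passed (-0.60, limma adjusted p = 0.0364). It passed in 2 of the 6 fits without an array, those without replicate 1 of DLD-1Δα-Cat and replicate 2 of DLD-1α-Cat. The second E2F5 probe set differed by -0.12, and neither passed over all probe sets (limma adjusted p = 0.0657 and 0.671). The average of both E2F5 probe sets differed by -0.36 and did not pass (limma adjusted p = 0.0987). RB1 differed by -0.16 (limma adjusted p = 0.384) and E2F1 by -0.24 (limma adjusted p = 0.557).

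The upstream lists gave few calls. Of 16 genes from TGF-β to CDKN2B, the receptor TGFBR2 fell by 0.48 on the log2 scale (limma adjusted p = 0.0345) and 0 rose. SMAD3 differed by 0.30, SMAD4 by 0.027 and MYC, a repressor of CDKN2B and CDKN1A, by -0.47 (95% interval -0.97 to 0.023, limma adjusted p = 0.263). Single arrays of DLD-1α-Cat moved the MYC value: it was -0.74 and passed without replicate 1 (limma adjusted p = 0.0144), and was -0.31 without replicate 2 (limma adjusted p = 0.375). TGFBR2 passed in 1 of the 6 fits without an array, that without replicate 1 of DLD-1α-Cat. Neither of its probe sets passed over all probe sets (limma adjusted p = 0.0682 and 0.429). Their average differed by -0.39 and did not pass (limma adjusted p = 0.0726).

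Ubiquitin ligase genes that act on p21 and p27 had 0 of 12 calls, with a median of -0.10. The most different of those brighter than the median gene was DTL, which targets p21 in S phase (-0.31, limma adjusted p = 0.289), and SKP2, the receptor for p27, differed by -0.076 on its brightest probe set (95% interval -0.29 to 0.14). Its other probe sets differed by -0.44 and -0.31, and the average of all 3 by -0.28 (limma adjusted p = 0.206). Polycomb genes, known as repressors of the INK4 locus, had 0 of 12 calls, and CBX7 differed by 0.49 (limma adjusted p = 0.348). By limma at an unadjusted p under 0.05, 1 ligase gene was lower and 0 higher, and of the Polycomb genes 1 was higher and 1 lower.

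Other brakes on proliferation gave 3 of 17 calls, all higher, with a median of 0.22. They were TXNIP, an inhibitor of thioredoxin, at 0.72 (limma adjusted p = 0.0194), GADD45A, a stress-induced growth arrest gene, at 0.65 (limma adjusted p = 0.0169), and NDRG1, a stress-induced gene, at 0.49 (limma adjusted p = 0.0418). All 3 probe sets of TXNIP passed. TXNIP lost the call without replicate 2 or 3 of DLD-1Δα-Cat or replicate 3 of DLD-1α-Cat (limma adjusted p = 0.0565 to 0.0755). GADD45A lost it in the same 3 fits (limma adjusted p = 0.0708 to 0.0769), and NDRG1 in each of the 6 fits without an array. The single NDRG1 probe set did not pass over all probe sets (limma adjusted p = 0.0782). Of 16 senescence-associated genes IGFBP7, a secreted growth factor binding protein, rose by 1.53 (limma adjusted p = 0.0484), on the brightest of 3 probe sets. It passed in 1 of the 6 fits without an array, that without replicate 3 of DLD-1α-Cat, and its adjusted p was 0.0699 with the replicate number as a block. No IGFBP7 probe set passed over all probe sets (limma adjusted p = 0.0751, 0.128 and 0.838), and the brightest lay at percentile 48.4 of brightness. The median of that list was -0.17, with 4 positive and 12 negative differences. The nuclear lamin LMNB1, which is lost in senescent cells, differed by -0.21 (95% interval -0.49 to 0.060). Among the others IL6 differed by -0.28, CXCL8 by -0.42, CCL2 by -0.40 and PLAUR by -0.43. On the positive side were MMP1 at 0.72, IGFBP3 at 0.67 and IL1A at 0.35. Apart from IGFBP7 none of these passed. Over all 8 lists 5 genes were higher and 3 lower among 103 tested, shares near the 3.84% and 1.67% of all genes.

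**Figure D4:**
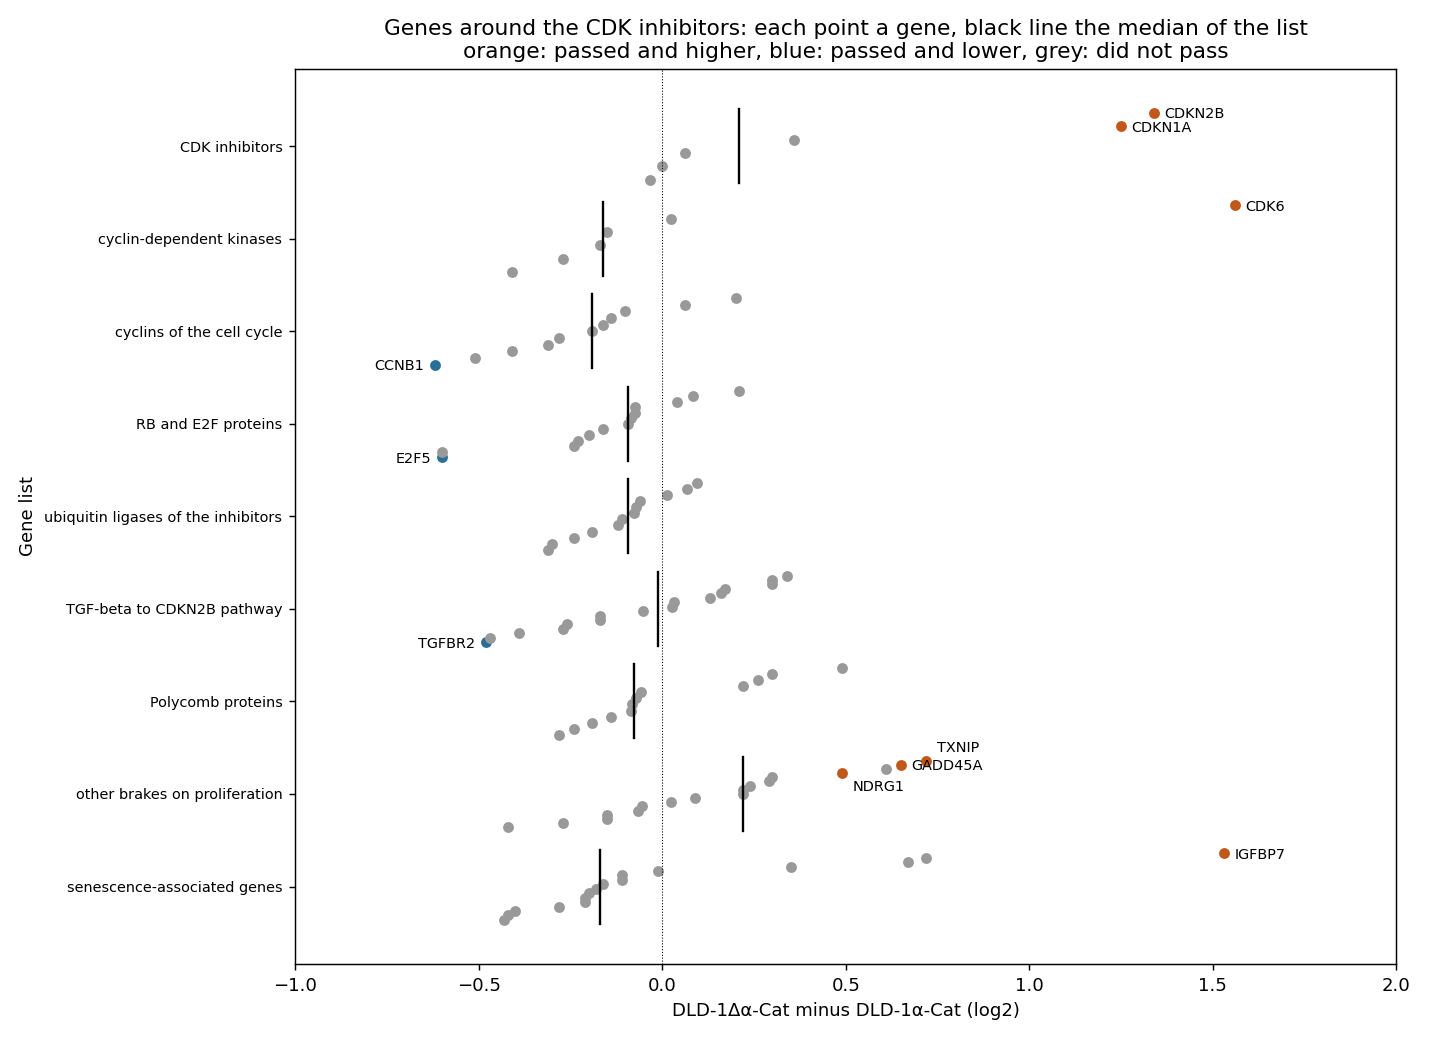
Difference between DLD-1Δα-Cat and DLD-1α-Cat (the first minus the second, log2, horizontal axis) of each tested gene in the CDK inhibitor list and 8 lists around it (vertical axis); points are genes, the black line is the median of the list, and orange or blue points passed the test as higher or lower. CDKN2B, CDKN1A, CDK6 and IGFBP7 lie above 1, and most other genes lie between -0.6 and 0.7.

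The genes whose profiles over the 6 arrays were most like that of CDKN2B were found by the root-mean-square difference between profiles, each centred on its own mean. They were RFTN2 (0.0640), DDIT3 (0.0662), CCDC62 (0.0718), ANXA2R (0.0901) and MCPH1-AS1 (0.103). All 5 were higher in DLD-1Δα-Cat, with differences of 1.22 to 1.45, of the size seen for CDKN2B. The 6 arrays form 2 groups, so the likeness mostly reads a shared difference between subclones.

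RNA quality, read from control probe sets, also differed between the subclones. For β-actin the 3′ control probe set exceeded the 5′ one by 5.16, 5.38 and 5.07 log2 units in DLD-1Δα-Cat, against 4.82, 4.89 and 4.36 in DLD-1α-Cat. These ranges did not overlap, and a two-sided exact permutation test of the means gave p = 0.1. No split of 3 against 3 arrays can give a smaller p. The same measure for GAPDH, 0.69 to 0.82 in DLD-1Δα-Cat and 0.51 to 0.79 in DLD-1α-Cat, overlapped (exact permutation p = 0.4). With this actin 3′ to 5′ difference (the actin ratio) as a covariate, which leaves 3 residual degrees of freedom per gene, CDKN2B differed by 1.51 (limma adjusted p = 0.0458) and CDKN1A by 1.53 (limma adjusted p = 0.107). CDK6 differed by 1.44 (limma adjusted p = 0.353). In the fit over all probe sets neither gene passed with this covariate (limma adjusted p = 0.0964 for CDKN2B 236313_at and 0.207 for CDKN1A). CTNNA1 also lost its call with it in the fit over genes (-1.56, limma adjusted p = 0.0667). Of the inhibitors only CDKN2B in the fit over genes stayed past the threshold. The actin ratio did not overlap between the subclones, so this fit cannot tell it apart from the subclone.

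**Figure D5:**
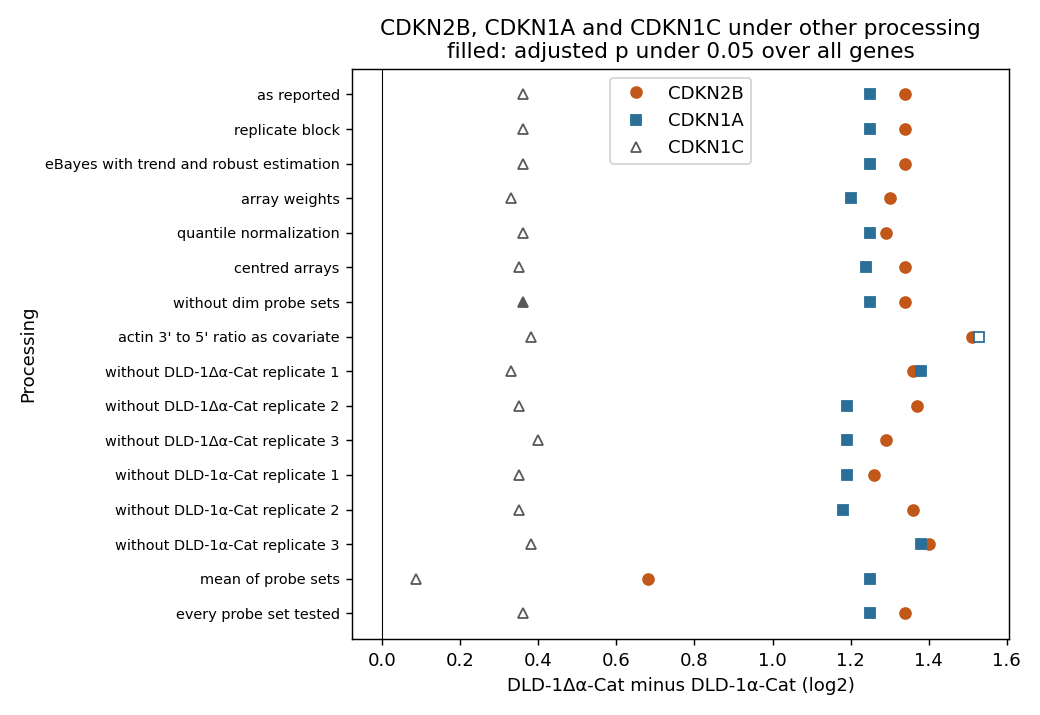
Difference between DLD-1Δα-Cat and DLD-1α-Cat (the first minus the second, log2, horizontal axis) of CDKN2B, CDKN1A and CDKN1C as reported and under 15 other ways of processing (vertical axis); filled symbols passed the adjusted p. CDKN2B passed in all 15 and CDKN1A in 14, and CDKN1C passed in 1.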

How the data were processed

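Each of the 6 arrays carries 54675 probe sets. The deposited values are log2 intensities from RMA, run by the authors with Affymetrix Expression Console according to the submitters' processing notes, whose versions the sources do not give. RMA equalises overall brightness between arrays and would hide a shift of the whole transcriptome. The number of arrays limits the precision.

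After removal of 62 control probe sets, 41091 probe sets had a single symbol in the platform annotation. A further 1801 had more than 1 symbol, and 11721 had no entry and stay unnamed here. No probe set of an inhibitor carried several symbols. By gene ID 41037 matched RefSeq, used for names, gene order and promoters. The test was limma's (version 3.58.1, R 4.3.3; lmFit and eBayes, two-sided), which was first tested on simulated data. Named were all inhibitors, CTNNA1, 12 direct partners with a value, every called list member or, where none passed, the most different bright one, and the 5 genes most like the inhibitor with the smallest p. SMAD3, SMAD4, the senescence-associated genes other than IGFBP7 and the neighbours were named after their values had been seen. The members and lists were chosen with earlier results of these data known. A further gene list of the design is not reported here.

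The labels state no pairing by replicate number, so the reported fits did not use it and an alternative fit used the numbers as a block. Same-numbered arrays deviated together from their group means (r = 0.225, 0.376 and 0.122 over genes). Differently numbered arrays gave r from -0.317 to 0.0666. Deviations from a group mean cancel within the group, so these values cannot settle whether the samples were paired. The alternatives were a replicate block, a variance trend with robust estimation, array weights, quantile normalization, centring, a filter on dim probe sets, the actin ratio as a covariate, other handling of probe sets and leaving out each array.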

Additional observations from a re-analysis of the deposited data

How the results depend on the processing

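In the fit over genes CDKN2B stayed higher and past the threshold in 15 of 15 alternatives, with limma adjusted p from 0.00039 to 0.0458 and differences of 0.68 to 1.51. CDKN1A did so in 14 of 15 (0.000558 to 0.0312) and lost the call with the actin ratio as a covariate (1.53, adjusted p = 0.107); the cause was not tested. CDKN1C gained the call without dim probe sets (0.36, adjusted p = 0.0397), where fewer genes are tested. In the fit over all probe sets 236313_at of CDKN2B passed in 12 of 13 alternatives and 202284_s_at of CDKN1A in 10 of 13, and with the actin covariate neither did (adjusted p = 0.0964 and 0.207). Some differences that did not pass changed sign. With array weights CDKN1B stood at 0.039 (0.052 as a probe set), CDKN2A at -0.065 (-0.064) and CDKN2D at 0.12 (0.11); with quantile normalization CDKN1B stood at 0.015. With the actin covariate 209644_x_at of CDKN2A stood at 0.11, 207530_s_at of CDKN2B at -0.020, 210240_s_at of CDKN2D at 0.032, CCNE1 at 0.21, CDK2 at 0.087, DTL at 0.051, E2F1 at 0.43 and SKP2 at 0.030. Leaving out 1 array gave 1.18 to 1.38 for CDKN1A, -0.076 to 0.071 for CDKN1B, 0.33 to 0.40 for CDKN1C, -0.075 to 0.16 for CDKN2A, 1.26 to 1.40 for CDKN2B and -0.23 to 0.17 for CDKN2D. It also gave -0.021 to 0.10 for 207530_s_at of CDKN2B, -0.11 to 0.036 for 210240_s_at of CDKN2D and -0.17 to 0.0010 for CCND1.

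Over all genes 760 were higher and 331 lower. The counts were 1150 and 564 when eBayes used trend and robust estimation, and 58 and 26 with the actin covariate. Array weights gave 549 lower genes, testing every probe set 196 lower. Without 1 array there were 323 to 854 higher and 116 to 348 lower. Of the 103 list genes 5 were higher and 3 lower. These counts were 7 and 5 with the variance trend, 0 and 0 with the actin covariate, 3 and 0 with every probe set tested, and 1 to 4 and 0 to 2 without 1 array. With the replicate block CDKN1A and CDKN2B had adjusted p = 0.0120 and 0.00595, no inhibitor changed its call, 6 list genes were higher and 3 lower, and IGFBP7 lost its call. Values below the median brightness, among them CDKN2A and CDKN2D, are limited by the array's background.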
